A study of Mus musculus with 8 samples.

Results

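Collagens are the structural proteins of the extracellular matrix, and the genes described here are those that encode their chains. Members were taken by name, as every probe set that carries 1 gene symbol in the platform annotation, where that symbol is Col, digits, a and digits (Col1a1, for example). This gave 46 probe sets and 44 genes out of 19938 genes on the arrays. Col6a5 and Col6a6 had 2 probe sets each, and the brighter one by its mean over all arrays stands for the gene.

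All 8 arrays held total RNA of cultured mouse spermatogonial stem cells, the germ cells that renew themselves in the testis and supply sperm production. In 2 arrays the cells were a serial-transplant line, passed on through recipient testes, with a labelled donor age of 1500 days and 14 to 18 months of culture (serial transplant, long culture). In 3 arrays the donors were 8 days old and culture also lasted 14 to 18 months (young donor, long culture), and in 3 more the donors were 8 days old and culture lasted 7 to 10 weeks (young donor, short culture). Donor age and transplantation came together in the first group and cannot be told apart, and the labels name neither strain nor feeder cells, nor say whether replicates were separate cultures or donors.

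Collagen chains wind around each other into a rope-like molecule, and each type is built from its own set of chains. Fibrillar collagens such as types I, III and V build the cable-like fibrils of connective tissue and are made mainly by fibroblasts. Type VI forms beaded filaments between cells and fibrils, and type IV forms the sheet of basement membranes, on which spermatogonia rest in the testis. Fibril-associated collagens (FACIT) decorate fibrils, and transmembrane collagens stay in the cell surface.

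Values are log2 signals, on which a difference of 1 is a doubling. Array medians ran from 6.90 to 6.98, and precision is limited by how few arrays there are. The median of all probe sets, 6.94, serves as a mark of dim signals, since these arrays give no call of detection. Replicate 2 of young short culture was the least like its group: it correlated at 0.990 and 0.991 with its fellow replicates, and those at 0.996 with each other. Results that change without it are given both ways. As a check of the cell label, all 20 listed markers of spermatogonia and germ cells had a mean above 6.94. Of 19 measured fibroblast markers other than collagens, 17 did so too. Sertoli, endothelial and macrophage markers were mostly dim, with 6 of 13, 1 of 10 and 1 of 10 above that mark.

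A minority of collagen genes were lower in long-cultured than in short-cultured cells of young donors, and those that fell encode chains of types I, III, IV, V, VI, XIV and XVI. Of 44 collagen genes, 10 fell and 0 rose in limma at a Benjamini-Hochberg adjusted p under 0.05, where 5.83% of all 28944 probe sets fell and 5.43% rose. At an unadjusted p under 0.05, 22 were lower and 1 was higher. The median difference was -0.23 over the 44 genes and -0.04 over all genes. The count of 10 was 2 without young long-culture replicate 1, 2 without young long-culture replicate 3 and 4 without young short-culture replicate 2. At these settings 786, 607 and 1255 of all 28944 probe sets fell, against 1687 with all arrays. In 20 of the 44 genes the long-culture arrays all lay below the short-culture arrays, as they did in 16.3% of all probe sets.

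**Figure D1:**
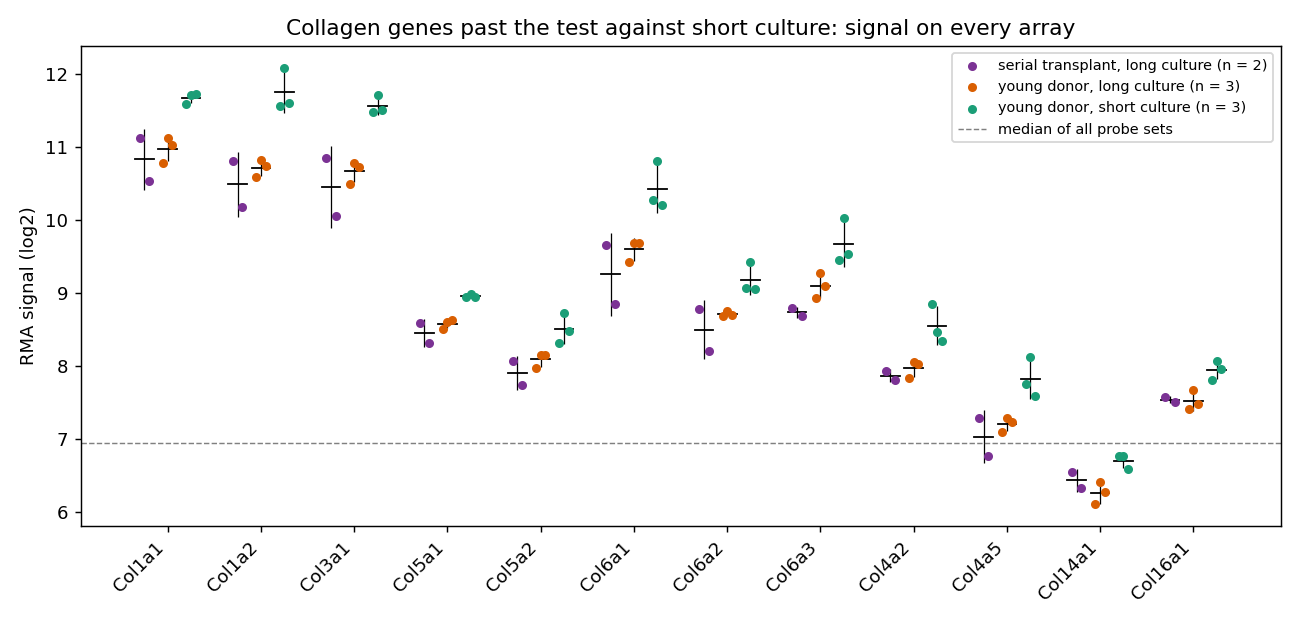
Log2 RMA signal (vertical axis) of the 12 collagen genes that fell in either comparison with short culture, on every array. Dots are arrays, black bars are group means with SD, and the dashed line marks 6.94, the median of all probe sets. In all 12 genes, which were picked for their difference from short culture, each short-culture array lies above every long-culture array of both donors.

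Among the fibrillar chains, Col1a2 differed most of the 44 genes. Col1a2, a chain of type I collagen, had 10.59, 10.82 and 10.74 in young long culture, against 11.57, 12.09 and 11.61 in young short culture. The groups did not overlap, and the fall was 2.06-fold (log2 difference -1.04, SE 0.18, adjusted p = 0.00551). Col1a1, its partner chain, had 10.79, 11.12 and 11.03 in young long culture, against 11.59, 11.71 and 11.73 in young short culture. Again no array overlapped, and the fall was 1.62-fold (adjusted p = 0.0138), a call lost without young long-culture replicate 1 (0.0604) or 3 (0.0501). Col3a1, whose product mixes into the same fibrils in soft tissue, had 10.50, 10.79 and 10.73 in young long culture and 11.49, 11.71 and 11.51 in young short culture. It fell 1.86-fold (log2 difference -0.90, SE 0.17, adjusted p = 0.00977), and together with Col1a2 it passed with any 1 of the 6 arrays left out, at adjusted p values up to 0.0464 and 0.0286.

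Type V collagen nucleates fibrils of type I, and its chains differed by smaller amounts. Col5a1 had 8.51, 8.60 and 8.63 in young long culture, against 8.95, 8.98 and 8.95 in young short culture. The short-culture arrays lay within 0.03 of each other and above all long-culture arrays, and the gene fell 1.30-fold (log2 difference -0.38, SE 0.10, adjusted p = 0.0326). That call was lost with each of the 6 arrays left out in turn, at an adjusted p of up to 0.116, while the log2 difference stayed between -0.41 and -0.35. Col5a2 had a similar difference (-0.42, SE 0.13) that missed the threshold (adjusted p = 0.0631), and Col5a3, a minor chain of type V, differed by -0.23 (adjusted p = 0.178).

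The remaining fibrillar chains are known from cartilage or are minor. Col11a1, Col11a2, Col24a1 and Col27a1 differed by between -0.29 and 0.03, and none passed. Col2a1, the main collagen of cartilage, went the other way, with 8.42, 8.07 and 8.14 in young long culture and 7.74, 7.80 and 7.94 in young short culture. Its groups did not overlap, but the difference of 0.38 (SE 0.12) missed the threshold (adjusted p = 0.0555). It passed when each array was centred on its median (log2 difference 0.43, adjusted p = 0.0384). Of the 11 fibrillar genes 4 fell in all, with a median difference of -0.29, and 2 had a positive difference, Col2a1 and Col11a1.

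Type VI collagen is assembled from the products of Col6a1, Col6a2 and Col6a3. Col6a1 had 9.42, 9.69 and 9.69 in young long culture, against 10.27, 10.81 and 10.21 in young short culture. The groups were separate, with young short-culture replicate 2 highest, and the fall was 1.78-fold (log2 difference -0.83, SE 0.21, adjusted p = 0.0267). Without replicate 2 the log2 difference was -0.64 and the call was lost (adjusted p = 0.0711), as it was without any 1 of the young long-culture arrays. Col6a3 had 8.93, 9.27 and 9.09 in young long culture, against 9.45, 10.03 and 9.54 in young short culture, and it fell 1.49-fold (adjusted p = 0.0325), a call lost without young short-culture replicate 2 or without young long-culture replicate 1 or 3. Col6a2 differed by -0.47 (SE 0.15) with separate groups but did not pass (adjusted p = 0.0706). Col6a4, Col6a5 and Col6a6, which can replace Col6a3 in the molecule, had differences of -0.26, -0.31 and -0.13, none past the test, and the first and second of these had 8-array means under 6.94. The median over the 6 type VI genes was -0.39, with 2 past the test and 0 when replicate 2 of the short-culture group, or replicate 1 or 3 of the long-culture group, was left out.

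**Figure D2:**
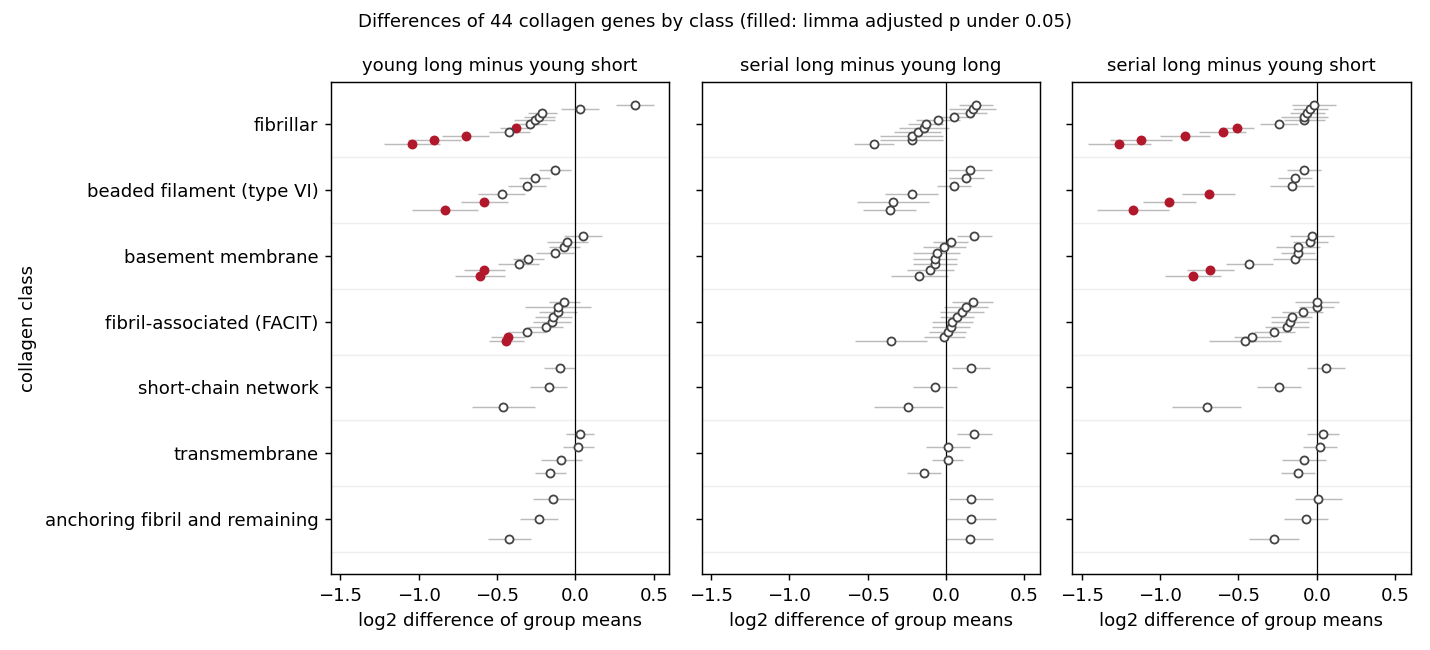
Log2 difference of group means (horizontal axis) for each of the 44 collagen genes, by class, in the 3 comparisons. Dots are genes, grey bars are standard errors from limma, and filled dots have an adjusted p under 0.05. Filled dots lie in the fibrillar, type VI, basement membrane and FACIT classes, and the middle panel, serial transplant minus young donor in long culture, has none.

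Basement membrane chains behaved unevenly. Col4a2 had 7.83, 8.06 and 8.02 in young long culture, against 8.85, 8.46 and 8.34 in young short culture, and fell 1.50-fold (log2 difference -0.58, SE 0.13, adjusted p = 0.0192), a call lost without young long-culture replicate 1 or 3. Col4a1, which joins it in the common type IV molecule, had 7.85, 8.08 and 8.06 in young long culture and 8.60, 8.24 and 8.25 in young short culture. Its groups also did not overlap, but its difference of -0.36 (SE 0.13) did not pass (adjusted p = 0.108). Whether these 2 partner genes differed by unequal amounts was not tested. Col4a5 had 7.10, 7.29 and 7.23 in young long culture and 7.75, 8.12 and 7.59 in young short culture, a 1.53-fold fall (adjusted p = 0.0308) that was lost with 5 of the 6 arrays left out in turn. The tissue-restricted chains Col4a3, Col4a4 and Col4a6 were dim, with 8-array means of 6.60, 6.55 and 6.20, and differed by between -0.13 and 0.05. Col18a1, the source of endostatin, had 8.14, 7.88 and 7.97 in young long culture and 8.26, 7.80 and 8.06 in young short culture, a difference of -0.05 (SE 0.13). Col15a1, also of the basement membrane zone, differed by -0.30 (adjusted p = 0.0811). The class of 8 had 2 falls and a median of -0.21, which was -0.47 over the 4 members above the dim mark.

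In the FACIT class Col14a1 and Col16a1 fell. Col16a1 had 7.41, 7.67 and 7.48 in young long culture, against 7.81, 8.07 and 7.96 in young short culture (log2 difference -0.43, SE 0.11, adjusted p = 0.0292). Col14a1 averaged 6.26 ± 0.15 in young long culture and 6.70 ± 0.10 in young short culture (SD, n = 3 each), both under the dim mark, with a difference of -0.44 (adjusted p = 0.0300). Each of these 2 calls was lost with 4 of the 6 arrays left out in turn. Col12a1, a FACIT of dense connective tissue, had 8.17, 8.19 and 8.08 in young long culture and 7.78, 8.85 and 8.16 in young short culture, so that its groups overlapped and its difference of -0.11 (SE 0.21) was small beside the spread. Col22a1 had 7.39, 7.64 and 7.47 in young long culture and 7.47, 7.59 and 7.64 in young short culture, and together with Col9a1, Col9a2, Col9a3, Col19a1 and Col20a1 it lay among 6 FACIT differences of -0.31 to -0.07.

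Short-chain, transmembrane, anchoring and remaining collagens gave no call among 10 genes. Col8a1, a short-chain collagen of vessel walls and basement membranes, had 7.89, 7.74 and 7.71 in young long culture and 8.30, 8.56 and 7.85 in young short culture (log2 difference -0.46, SE 0.20, adjusted p = 0.173). It passed without young short-culture replicate 3 (log2 difference -0.65, adjusted p = 0.0482). Col8a2, its partner chain, had 6.27, 6.52 and 6.33 in young long culture and 6.46, 6.38 and 6.59 in young short culture, and Col10a1, of growth-plate cartilage, had 5.75, 5.64 and 5.54 in young long culture and 5.81, 5.88 and 5.73 in young short culture. Both were dim on every array.

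Col7a1, of anchoring fibrils in skin, had 7.28, 7.45 and 7.21 in young long culture and 7.33, 7.74 and 7.55 in young short culture (log2 difference -0.23, adjusted p = 0.258). Col28a1 had 5.79, 6.39 and 5.94 in young long culture and 6.49, 6.54 and 6.36 in young short culture, a difference of -0.42 that missed the threshold (adjusted p = 0.0832) but passed with replicate 2 of the long-culture group left out (-0.60, adjusted p = 0.0191). Col26a1 differed by -0.14, with overlapping groups of 7.47, 7.87 and 7.59 in young long culture and 7.61, 8.03 and 7.71 in young short culture. The transmembrane genes were nearly level. Col13a1 had 7.76, 7.98 and 7.95 in young long culture and 7.95, 7.75 and 7.93 in young short culture, and Col17a1, of the hemidesmosome, had 7.60, 7.64 and 7.52 in young long culture and 7.54, 7.60 and 7.54 in young short culture. Col23a1 had 6.97, 7.13 and 7.06 in young long culture and 7.12, 7.25 and 7.28 in young short culture, and with Col25a1 the 4 genes lay between -0.16 and 0.03.

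Of all 44 genes, the 15 at or below the dim mark had a median difference of -0.15, beside -0.09 over all 9040 such dim genes. The 29 above it had a median of -0.29, beside 0.04 over 10898 such genes.

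Promoters of members with large falls are shown because genes that move together may be compared by sequence. RefSeq (GRCm38.p6) windows of 250 bases before the annotated start were at hand for 35 of the 44 genes and for 9 of the 12 that fell in either comparison with short culture. Capitals mark matches, on either strand, to CCAAT (the CCAAT box), GGGCGG (the GC box), TATAAA (the TATA box) or TGANTCA (the AP-1 motif), and in the windows below no matches overlap. Col1a2 lies on the plus strand at chr6:4505368-4505617, Col3a1 on the plus strand at chr1:45311288-45311537 and Col6a1 on the minus strand at chr10:76726045-76726294.
Col1a2: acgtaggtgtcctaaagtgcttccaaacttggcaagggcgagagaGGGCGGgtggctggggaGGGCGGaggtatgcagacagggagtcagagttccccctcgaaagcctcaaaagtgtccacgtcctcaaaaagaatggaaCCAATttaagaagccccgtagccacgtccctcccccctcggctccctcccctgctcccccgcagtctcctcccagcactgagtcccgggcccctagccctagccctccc
Col3a1: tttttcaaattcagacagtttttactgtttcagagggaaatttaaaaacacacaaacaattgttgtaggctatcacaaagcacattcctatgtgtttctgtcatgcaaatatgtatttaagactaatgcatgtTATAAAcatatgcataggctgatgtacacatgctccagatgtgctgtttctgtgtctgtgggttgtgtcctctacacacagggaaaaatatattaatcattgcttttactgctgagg
Col6a1: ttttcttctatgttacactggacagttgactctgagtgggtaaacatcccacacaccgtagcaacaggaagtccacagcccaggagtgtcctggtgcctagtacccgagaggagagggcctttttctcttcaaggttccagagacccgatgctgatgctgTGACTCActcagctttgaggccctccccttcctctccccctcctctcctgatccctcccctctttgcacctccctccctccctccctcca

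These windows shared none of the 4 motifs. Col1a2 holds 2 GC boxes and a CCAAT box, Col3a1 a match to TATAAA that begins at position -117, and Col6a1 an AP-1 motif. These are matches by sequence, and their use was not tested. Of the 9 genes that fell and had a window, 4 hold CCAAT, 6 hold GGGCGG, 1 holds TATAAA and 1 holds TGANTCA. Of all 35 collagen genes with a window, 13 hold CCAAT, 21 GGGCGG, 5 TATAAA and 1 TGANTCA. Over all 32851 RefSeq windows of that length these motifs occur in 33.8%, 32.7%, 12.4% and 6.75%. Col4a1 and Col4a2 are read in opposite directions from starts 21 bases apart. The window of Col4a2 holds a CCAAT box that begins at position -32 from its start and lies outside the window of Col4a1. It is shown here for 30 bases at chr8:11312773-11312802 on the plus strand.
Col4a2: CCAATttgttggcgctgccccctcccctcg

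The serial-transplant line and the young-donor cells were both in long culture, and this comparison asks what donor age with transplantation adds. No collagen gene passed in limma, and neither did any of the 28944 probe sets (0%), while 1 of the 44, Col2a1, had an unadjusted p under 0.05. The median difference was 0.01, with 23 genes positive and 21 negative. Type I chains were spread widely between the 2 serial-transplant arrays. Col1a2 had 10.81 and 10.18 in serial-transplant long culture, against 10.59, 10.82 and 10.74 in young long culture (log2 difference -0.22, SE 0.20, adjusted p = 0.862). Col3a1 had 10.85 and 10.06 in serial-transplant long culture, against 10.50, 10.79 and 10.73 in young long culture. In both genes serial-transplant replicate 2 lay below all young long-culture arrays and replicate 1 near or above the highest of them. Col1a1 had 11.13 and 10.54 in serial-transplant long culture, one above and one below all 3 young long-culture arrays (10.79, 11.12 and 11.03). Without replicate 2 the median of the 11 fibrillar genes was 0.10, against -0.13 with it.

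Col2a1 and Col6a3 had separate groups in this comparison. Col2a1 had 7.83 and 7.66 in serial-transplant long culture, against 8.42, 8.07 and 8.14 in young long culture, a difference of -0.46 (SE 0.13, adjusted p = 0.426). Of its serial-transplant values 7.83 lay within the range of young short culture and 7.66 below it. Col6a3 had 8.79 and 8.68 in serial-transplant long culture, against 8.93, 9.27 and 9.09 in young long culture (log2 difference -0.36, SE 0.17, adjusted p = 0.706). Altogether 3 genes were separately lower, the third being Col12a1, and 5 separately higher, where 10.8% and 14.9% of all probe sets were. The 5 were Col15a1, Col23a1, Col24a1, Col6a4 and Col8a2, with differences of 0.13 to 0.18.

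Against young short culture, the serial-transplant line had lower signals for chains of type I, III, IV, V and VI collagens. The comparison shares its short-culture arrays with the first one. Of 44 genes 10 fell and 0 rose, where 5.15% of all probe sets fell and 3.58% rose. At an unadjusted p under 0.05 13 were lower and 0 higher. Col1a2 fell 2.40-fold (log2 difference -1.26, SE 0.20, adjusted p = 0.00499), Col6a1 2.26-fold (adjusted p = 0.0113), Col3a1 2.17-fold (adjusted p = 0.00721) and Col6a3 1.92-fold (adjusted p = 0.00796). Col1a1 fell 1.79-fold, Col4a5 1.72-fold, Col4a2 1.61-fold, Col6a2 1.61-fold, Col5a2 1.52-fold and Col5a1 1.42-fold, at adjusted p values of 0.0111 to 0.0285. Without serial-transplant replicate 2 none of the 10 passed, when 53 probe sets in all fell and 13 rose. Without replicate 1 there were 10 calls. Each of these fits rests on 1 array of the line, which is assumed to vary like the other groups.

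Col6a1 had 9.66 and 8.85 in serial-transplant long culture, against 10.27, 10.81 and 10.21 in young short culture. Both arrays of the line lay below all short-culture arrays, and well apart from each other. Col6a2 had 8.78 and 8.21 in serial-transplant long culture, against 9.07, 9.42 and 9.05 in young short culture, and Col5a2 had 8.07 and 7.74 in the line, against 8.31, 8.73 and 8.48 in young short culture. Those 2 calls were lost without young short-culture replicate 2. On the serial-transplant arrays Col5a1 had 8.59 and 8.32, Col4a2 had 7.93 and 7.80, and Col4a5 had 7.29 and 6.77, each below all 3 short-culture values given above. The call of Col4a2 was also lost without serial-transplant replicate 1. Col14a1 and Col16a1, which fell in young long culture, did not pass here, with 6.54 and 6.32 and with 7.57 and 7.50 in the line (log2 differences -0.27 and -0.41, adjusted p = 0.237 and 0.0601). Col8a1 had the widest difference among genes that missed the threshold (-0.70, SE 0.22, adjusted p = 0.0794), and it passed without serial-transplant replicate 1 (log2 difference -1.07, adjusted p = 0.0310). Col4a1 again did not pass beside its partner (-0.43, adjusted p = 0.114). Fibrillar genes accounted for 5 of the 10 calls, type VI for 3 and basement membrane genes for 2, and FACIT genes for none.

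Fibroblast markers moved with the collagens. Of 19 such markers, none of them collagens but Loxl1 also in the cross-linking list below, 11 fell and 1 rose in young long against young short culture, and 12 fell and 1 rose in the serial-transplant line against short culture. Over all probe sets 5.83% fell and 5.43% rose in young long culture, and 5.15% fell and 3.58% rose in the line. Their median differences were -0.58 and -1.01. In young long culture 5 fell without replicate 1 of that group, 4 without its replicate 3 and 7 without young short-culture replicate 2, and in the line 0 fell without serial-transplant replicate 2. The mean level of the list was 9.00 and 8.55 on the serial-transplant arrays, 9.14, 8.97 and 9.00 on the young long-culture arrays, and 9.47, 9.93 and 9.38 on the young short-culture arrays. The lowest and the highest array of this list, serial-transplant replicate 2 and young short-culture replicate 2, were also the extremes for 8 of the 12 collagen genes that fell in either comparison with short culture, and for 12 of all 44. The other 4 of those that fell were Col1a1, Col4a2, Col14a1 and Col16a1. The lists below of collagen folding, processing, cross-linking, receptors, proteoglycans, basement membrane partners and breakdown had the same lowest and highest array by mean. The match is thus not particular to fibroblast markers, and the 12 genes were picked by calls that used these arrays. Pdgfra, the growth factor receptor of fibroblasts, had 10.43 and 9.20 in serial-transplant long culture, 10.44, 10.30 and 10.22 in young long culture, and 11.53, 12.45 and 11.48 in young short culture. Fbln1, a matrix glycoprotein, was the 1 that rose, by 0.81 and 1.17 in the same order of comparisons (adjusted p = 0.00702 and 0.00351). Their part in the collagen result was not tested, and in RNA of whole cultures fewer cells of a type and less RNA per cell cannot be told apart.

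**Figure D3:**
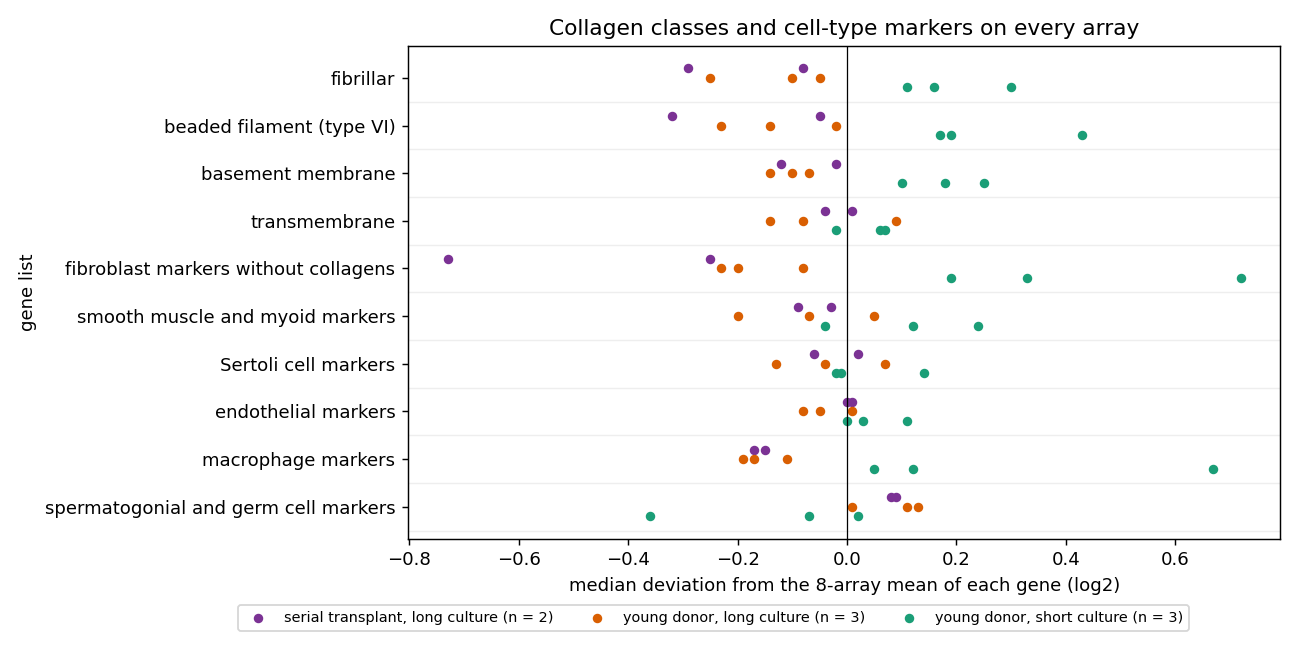
Median deviation of each gene list from its genes' 8-array means (horizontal axis, log2) on every array, for 4 collagen classes and 6 lists of cell-type markers. Dots are arrays. Fibrillar, type VI and basement membrane collagens, fibroblast markers and macrophage markers are above 0 on the short-culture arrays and below 0 on the long-culture arrays. Transmembrane collagens are not so ordered.

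Counts for markers of other cell types are read against the same shares of all probe sets, 5.83% lower and 5.43% higher in young long culture, and 5.15% lower and 3.58% higher in the line. Of 10 macrophage markers 4 fell in each comparison with short culture, led by Laptm5 (-2.29 and -2.18), and of 7 Leydig cell markers 3 and 2 fell, led by Cyp11a1 (-2.35 and -2.22). Their mean levels were 5.56 to 5.69 and 5.19 to 5.28 on the long-culture arrays, against 6.12 to 6.60 and 5.72 to 6.02 on the short-culture arrays. The 4 macrophage markers that fell were Laptm5, Fcer1g, Ptprc and Tyrobp. The rest of that list, Csf1r, Adgre1, Cd68, Cd14, Itgam and Lyz2, did not pass and were nearer level. They had differences of -0.27 to 0.01 in young long culture and -0.35 to 0 in the line. No endothelial marker of 10 passed, and of 10 smooth muscle and myoid markers 2 fell in each comparison, Cald1 and Acta2, and Myh11 rose in young long culture by 0.50. Of 13 Sertoli cell markers 1 rose and 1 fell in young long culture (Wt1 at 0.90 and Kitl at -1.52), near those shares, and 2 rose and 2 fell in the serial-transplant line. Of 20 germ cell markers 5 rose and 3 fell in young long culture, with a median of 0.19, and 2 rose and 3 fell in the line. The 5 rises were 1 without young long-culture replicate 1 or 3 and 2 without young short-culture replicate 2, and in the line no germ cell marker passed without serial-transplant replicate 2. What part any of these lists had in the collagen result was not tested.

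Genes of collagen folding and modification did not all fall with the collagen chains. Of 18 such genes 3 fell and 1 rose in each comparison with short culture, and 1 rise among 18 is near the 5.43% and 3.58% of all probe sets that rose in young long culture and in the line. Crtap, a member of the prolyl 3-hydroxylation complex, had 8.94 and 8.71 in serial-transplant long culture, 8.99, 8.71 and 8.79 in young long culture, and 9.45, 9.73 and 9.21 in young short culture. It differed by -0.63 in young long culture (adjusted p = 0.0169) and by -0.64 in the line (adjusted p = 0.0277). P3h2, a prolyl 3-hydroxylase, differed by -0.71 and -1.05 in the same comparisons, and P3h3 by -0.46 and -0.61, all past the test. P4ha2, a subunit of the prolyl 4-hydroxylase that stabilises the triple helix, rose by 0.54 in young long culture (adjusted p = 0.0189). Colgalt1, which adds galactose to collagen, rose by 0.50 in the line (adjusted p = 0.0192). In young long culture no gene of this list passed without replicate 2 or without replicate 3 of that group.

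Genes of procollagen export and processing and of collagen cross-linking are given as counts, to be set beside shares of all probe sets. In young long culture 5.83% fell and 5.43% rose, and in the line 5.15% fell and 3.58% rose. Of 12 genes of procollagen export and processing 5 fell and 2 rose in young long culture, and 6 fell and 0 rose in the serial-transplant line. Bmp1, the protease that trims procollagen ends, had 8.56 and 8.04 in serial-transplant long culture, 8.74, 8.60 and 8.67 in young long culture, and 9.36, 9.52 and 9.08 in young short culture. It differed by -0.65 in young long culture (adjusted p = 0.0195) and by -1.02 in the line (adjusted p = 0.00570). Sec24d, a coat protein of procollagen export vesicles, fell by 0.66 in young long culture. Pcolce2, an enhancer of procollagen trimming, rose by 0.64 there, with a dim 8-array mean of 6.75. Pcolce, also such an enhancer, was far brighter (8-array mean 11.27) and fell. It differed by -0.88 in young long culture (adjusted p = 0.0317) and by -1.26 in the line (adjusted p = 0.0129). Of 6 measured cross-linking genes 3 fell in each comparison with short culture, and 0 rose. The lysyl oxidase family members Loxl1 and Loxl3 differed by -1.21 and -0.76 in young long culture and by -1.38 and -0.83 in the line. The processing list had 1 fall in young long culture without replicate 1 or 3 of that group, 2 without its replicate 2, 3 without young short-culture replicate 1 and 2 without young short-culture replicate 2. Cross-linking genes gave 3 or 4 falls with any 1 of those 6 arrays left out. Without serial-transplant replicate 2 no gene of the folding, processing, cross-linking, receptor or breakdown lists passed in the line, and 1 basement membrane partner did.

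**Figure D4:**
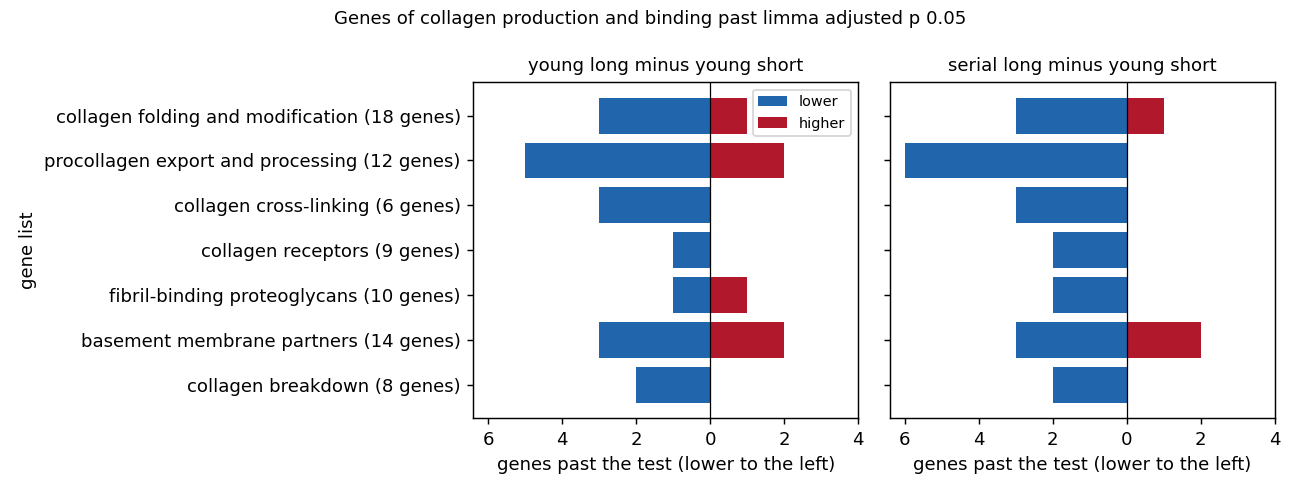
Number of genes past limma adjusted p 0.05 (horizontal axis, lower to the left and higher to the right) in 7 lists of collagen production and binding, in both comparisons with short culture. Procollagen export and processing has 5 falls and 2 rises in young long culture, and 6 falls in the serial-transplant line.

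Collagen receptors differed one by one. Ddr2, a receptor tyrosine kinase for fibrillar collagen, had 8.87 and 8.02 in serial-transplant long culture, 8.71, 8.70 and 8.59 in young long culture, and 9.87, 10.47 and 9.70 in young short culture. It fell by 1.35 in young long culture (adjusted p = 0.00498) and differed by -1.57 in the line (adjusted p = 0.00510). Ddr2 was the 1 call of 9 receptors in young long culture, near the 11.3% of all probe sets called there in either direction. Itga1, the collagen-binding integrin alpha chain, had 7.03 and 6.72 in serial-transplant long culture, 8.04, 7.77 and 8.01 in young long culture, and 8.06, 7.84 and 7.80 in young short culture. Both arrays of the line lay below the 6 young-donor arrays. Itga1 fell by 1.03 in the line against short culture (adjusted p = 0.00328), and its difference from young long culture, -1.06 (SE 0.14), did not pass (adjusted p = 0.0627). Itgb1, the beta chain that pairs with it, differed by -0.06 in young long culture and by 0.10 in the line against short culture, neither past the test.

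Proteins that bind to fibrils or share the basement membrane were mixed. Over all probe sets 5.83% fell and 5.43% rose in young long culture, and 5.15% fell and 3.58% rose in the line. Dcn, the proteoglycan decorin, had 11.59 and 10.60 in serial-transplant long culture, 11.61, 11.44 and 11.49 in young long culture, and 12.47, 13.17 and 12.38 in young short culture, with differences from short culture of -1.16 in young long culture (adjusted p = 0.0138) and -1.58 in the line (adjusted p = 0.00693). Of 10 fibril-binding proteoglycans Dcn fell and Aspn rose in young long culture, Aspn at means of 6.00 in young long culture and 4.73 in young short culture, both dim. In the line Dcn and Bgn fell. Bgn had 11.31 and 10.51 in serial-transplant long culture, against 12.01, 12.04 and 11.60 in young short culture. In both genes the arrays of the line lay well apart, with replicate 2 the lower. Of 14 basement membrane partners of type IV collagen 3 fell and 2 rose in each comparison with short culture. Nid1, which links laminin to type IV collagen, had 10.09 and 10.01 in serial-transplant long culture, 10.06, 9.96 and 10.04 in young long culture, and 11.34, 11.23 and 10.94 in young short culture. Its differences of -1.15 in young long culture (adjusted p = 0.000595) and -1.12 in the line (adjusted p = 0.00155) were larger than the spread in each group. Hspg2 (perlecan) and Lama4 fell, while the laminin alpha chains Lama1 and Lama5 rose by 0.53 and 0.70 in young long culture and by 0.66 and 0.74 in the line. Of 8 genes of collagen breakdown Mmp2 and Mmp14 fell in each comparison, with differences of -1.02 and -1.07 in young long culture and -1.29 and -1.41 in the line, and none rose. Lama1 and Lama5 thus moved opposite to Col4a2 and Nid1 in each comparison with short culture.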

How the data were processed

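Expression was measured in 8 samples on Affymetrix arrays. The authors deposited log2 signals, made with RMA in Partek 6.4 per the submitters' processing notes. RMA subtracts background, normalizes across arrays and condenses probes into probe sets. Sources used here give neither its settings nor a genome build. The table has 35557 rows. The first 6613, with consecutive identifiers, were taken as controls and left out. Gene names came from the platform annotation, updated by gene number in RefSeq (GRCm38.p6), for 21698 of 21789 probe sets with 1 symbol. The 3 pairs of groups were tested two-sided with limma 3.58.1 in R 4.3.3, using 1 coefficient per group over 8 arrays, with 5 residual degrees of freedom and 6.28 added by eBayes. Benjamini-Hochberg adjustment ran over 28944 probe sets, at a threshold of 0.05. Errors of differences are limma standard errors, and those of means are SD. Since the labels do not say that replicates were separate cultures, p-values cover only the spread among these arrays, possibly technical. The script was tested on simulated data, and no pair of arrays held the same values.

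Members, classes and lists were chosen with earlier results of these data known. Values per array are given for collagen genes past the test in a comparison or among the 3 brightest of their class. Of each other list up to 4 genes with the smallest p in a comparison are named. Macrophage and Leydig cell markers that passed in neither comparison with short culture are named besides. The alternatives, whose effect the closing section gives, were an intensity trend, array weights, a fit on only the groups compared, quantile normalization, centring, leaving out dim probe sets or dim members, the mean of a gene's probe sets, a minimum log2 change of 1, the replicate number as a block, leaving out each array, and testing every table row.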

Additional observations from a re-analysis of the deposited data

How the results depend on the processing

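Of 364 recomputed counts and medians of the collagen genes, 23 moved by more than 1.5 times (counts) or more than the spread between replicates (medians), and no called gene changed sign in 1100 recomputed gene values, in which 52 calls were lost and 8 gained. For young long minus young short culture, the falls numbered 10, and 14 with array weights, 3 with all rows of the table tested, 1 with a log2 change of at least 1, 2 to 9 with 1 array of these groups left out, and 11 without either serial-transplant array. The rises numbered 0, and 1 (Col2a1) with array weights, with the dim filter, with quantile normalization and with centring. Over all probe sets 1687 fell, and 2591 with array weights, 767 with all rows and 308 with the minimum log2 change. Those that rose numbered 1573, and 2488, 1618, 1589 and 1970 at the settings with a collagen rise, in the same order. In serial transplant minus young short culture 1491 probe sets fell. They were 779 with only those arrays, 684 with all rows and 468 with the minimum change. For serial transplant minus young short culture, the falls numbered 10, and 5 with only those arrays in the fit, 5 with all rows, 3 with a log2 change of at least 1, and 0 to 11 with 1 array left out. For serial transplant minus young long culture, no alternative gave a call. Over members above the dim mark alone, the median of the basement membrane class was -0.47 (-0.21 over all members) in young long and -0.55 (-0.13) in serial-transplant against young short culture, that of the short-chain class, then 1 gene (Col8a1), -0.46 (-0.17) and -0.70 (-0.24), and that of type VI -0.81 (-0.42) in serial-transplant against young short culture and -0.28 (-0.09) against young long culture. With quantile normalization the short-chain median was -0.08 in young long culture. With 1 array left out, the medians for serial transplant minus young long culture ran from -0.26 to 0.10 (fibrillar) and from -0.11 to 0.07 (basement membrane), and the transmembrane median for serial transplant minus young short culture from -0.09 to -0.01. The cause of these shifts was not tested. Replicate numbers share only a number: deviations of same-numbered young long and young short arrays correlated at 0.08, 0.18 and 0.10, and 4 of 6 young arrays were closest to their own number. With the replicate block, 8 and 10 collagen genes fell in the comparisons of young long and serial-transplant with young short culture. Array number and dim signal, rather than read depth, limit these values, and 15 of the 44 collagen genes lay at or below the median of all probe sets.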
